A study of Rattus norvegicus with 12 samples.

Results

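Immediate early activity genes are switched on within minutes of a stimulus from factors already present in the cell, and in neurons their RNA is widely used as a record of recent synaptic activity. Calcium entry and kinase cascades act on CREB, bound at cAMP response elements, and on serum response factor with its partners, bound at CArG boxes. Most of the products are transcription factors: FOS and JUN proteins pair as AP-1, EGR proteins are zinc-finger factors, NR4A1 is an orphan nuclear receptor, and NPAS4 is induced most selectively by calcium entry in neurons. ARC is an effector that acts at synapses on the removal of glutamate receptors from the surface. In the cerebellum these genes respond to excitation of granule and Purkinje cells, but glia also switch on most of them after growth factors or fresh serum.

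The genes described here were Fos, Fosb, Fosl2, Junb, Egr1, Egr2, Egr3, Arc, Npas4 and Nr4a1, chosen by symbol. A probe carrying the symbol was present on the array for 9 of the 10 genes, by 12 of the 30367 probes, and no probe carried the symbol Fosb. Of these 12 probes, 10 passed the filter on dim signal (23796 probes passed in all). The 2 that did not pass were the Npas4 probe and 1 of the 2 Egr3 probes. This left 8 genes with a tested probe: where a gene had several, the probe with the highest mean signal over the arrays was taken as its main probe.

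The cultures were neuron-enriched cultures from the cerebellum of 1-day-old Sprague-Dawley rats, kept in medium with 1% serum until day 8 and without serum afterwards. From day 2 to day 16 in vitro, 6 cultures received 1 µM acetamiprid (ACE), a neonicotinoid insecticide that acts on nicotinic acetylcholine receptors, in dimethyl sulfoxide, and 6 control cultures received the same 0.001% dimethyl sulfoxide alone. Part of the medium was replaced every 2 days with ACE added again, and the time between the last change and RNA extraction is not given in the sources used here. RNA was taken on day 16 and each culture was read on 1 one-colour array. Control and ACE cultures with the same replicate number came from 1 lot of cells, prepared from a single litter, and sat on 1 slide, so that 6 lots gave 6 control and ACE pairs.

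Array brightness, the 75th percentile of the signal before normalisation, ran from 1802.8 to 4383.7 intensity units, and 75.4% to 91.0% of the probes on an array were well above background. On each slide the control culture was read at place 1 and the ACE culture at place 3, so place and exposure cannot be told apart. Lots 4, 5 and 6 shared a scan batch, while lots 1, 2 and 3 were each scanned on their own. Markers of several cell types were read well above background on all 12 arrays, among them 8 of 8 granule cell genes, 7 of 7 astrocyte genes, 10 of 10 oligodendrocyte-lineage genes and 7 of 7 microglial genes. The array reads bulk RNA, so fewer cells of a type and less RNA per cell cannot be told apart, and the immediate early gene signal cannot be assigned to neurons or glia.

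The promoters show which control elements each gene carries in the 250 bases before its start. Promoters of 7 of the 10 genes were analysed here (Egr1, Egr2, Fosb, Fosl2, Junb, Npas4 and Nr4a1), with sequences from RefSeq (GRCr8). The core of the cAMP response element, called the core site here (CGTCA, or TGACG on the other strand) was found in 4 of the 7, against 18.2% of all 33469 rat promoters of this length, and the full element (TGACGTCA, which holds the core site on both strands) in none of the 7, against 1.59% of all. The CArG box (CCWWWWWWGG, where W is A or T, the same pattern on both strands) was found in 2 of the 7, against 1.5% of all. The 4 promoters with a core site follow, 5′ to 3′ on the gene's strand, with core sites and CArG boxes in capitals.
Egr1, chr18:26736828-26737077, + strand: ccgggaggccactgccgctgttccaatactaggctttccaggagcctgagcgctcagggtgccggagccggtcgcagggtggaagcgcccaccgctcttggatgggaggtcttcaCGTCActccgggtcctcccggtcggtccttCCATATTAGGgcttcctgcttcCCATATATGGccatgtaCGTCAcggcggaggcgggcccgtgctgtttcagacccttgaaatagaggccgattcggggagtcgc
Egr2, chr20:21054442-21054691, - strand: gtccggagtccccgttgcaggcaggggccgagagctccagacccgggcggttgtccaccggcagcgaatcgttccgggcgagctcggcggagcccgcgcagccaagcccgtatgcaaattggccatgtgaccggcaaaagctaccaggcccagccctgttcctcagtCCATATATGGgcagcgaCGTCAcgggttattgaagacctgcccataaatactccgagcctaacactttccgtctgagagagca
Junb, chr19:40080876-40081125, + strand: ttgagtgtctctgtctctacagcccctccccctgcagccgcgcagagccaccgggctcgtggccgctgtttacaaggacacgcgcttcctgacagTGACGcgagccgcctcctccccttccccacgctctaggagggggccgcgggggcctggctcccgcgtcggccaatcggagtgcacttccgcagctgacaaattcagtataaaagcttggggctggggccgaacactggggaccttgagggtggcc
Nr4a1, chr7:134259888-134260137, + strand: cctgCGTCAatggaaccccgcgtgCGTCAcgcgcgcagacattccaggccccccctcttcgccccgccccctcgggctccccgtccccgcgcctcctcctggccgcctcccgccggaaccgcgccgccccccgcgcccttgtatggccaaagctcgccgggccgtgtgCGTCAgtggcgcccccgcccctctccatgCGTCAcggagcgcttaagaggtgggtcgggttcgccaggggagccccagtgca

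Egr1 carried core sites 135 and 66 bases before its start and CArG boxes 105 and 83 bases before it. Egr2 had 1 of each, at 66 and 83 bases, the same distances as the nearer pair in Egr1. Nr4a1 carried 4 core sites, at 246, 226, 82 and 53 bases, and no CArG box, and Junb carried a single core site at 155 bases. At least 2 core sites occurred in 3.98% of all promoters and in Egr1 and Nr4a1 among the 7. Of 3 further motifs, an EGR site (GCGGGGGCG or its complement) occurred in Nr4a1 and Fosl2 (2.45% of all promoters). The letters of a TATA box (TATAAA or its complement) occurred in Junb and, only on the other strand, in Fosb (12.9% of all). An AP-1 site (TGACTCA or its complement) occurred in none of the 7 (4.05% of all). These matches are letters in a window and say nothing of binding in the cultures.

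No immediate early gene passed the test between ACE and control cultures after correction over all probes. With limma and the lot as a block, 0 of the 8 genes passed an adjusted p of 0.05, and 0 of all 23796 probes did (0%), the lowest adjusted p over all probes being 0.141. At an unadjusted p under 0.05, 1 gene was higher in ACE (Junb, against 6.9% of all probes) and 1 was lower (Egr3, against 9.73% of all probes). Together these were 2 of 8 genes beside 16.6% of all probes. Mean signal was higher in ACE for 6 of the 8 genes, beside 47.8% of all probes. The median difference over the 8 genes was 0.013 on the log2 scale, beside -0.0050 over all probes.

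**Figure D1:**
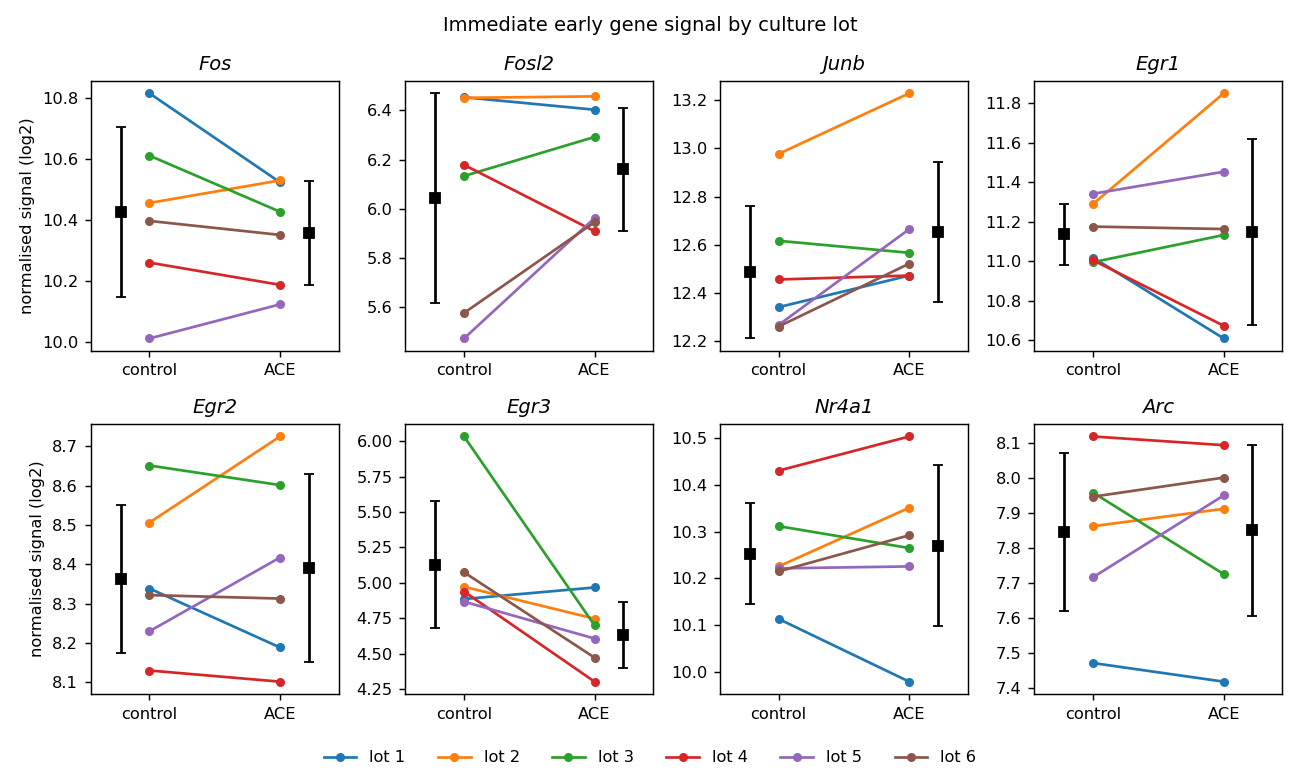
Normalised log2 signal of the main probe of 8 immediate early genes (y axis, a separate range for each gene) in control and ACE cultures (x axis), with a line joining the 2 cultures of each of the 6 lots and squares with bars giving the mean and SD of each group (n = 6). The lines slope both ways in 6 genes without a majority of more than 4 of 6, while 5 of 6 fall for Egr3 and 5 of 6 rise for Junb.

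Among the AP-1 genes, Fos, the classical marker of recent activity, was read by 1 probe (rn4, chr6:109561941-109562000, + strand). Its normalised log2 signal in control cultures was 10.01 at the lowest, 10.43 at the median and 10.82 at the highest, and in ACE cultures 10.12, 10.39 and 10.53. The ACE values lay inside the control range. The mean ACE minus control difference was -0.068 ± 0.058 (SE, 95% interval -0.21 to 0.072, n = 6 pairs, limma adjusted p = 0.578), with ACE higher in 2 of 6 pairs. On the fold scale this interval ran from 0.866 to 1.05.

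Junb, which encodes a partner of FOS in AP-1, was read by a probe at rn4 chr19:24833225-24833284 (+ strand). Its log2 signal was 12.26, 12.40 and 12.98 in control cultures (lowest, median, highest) and 12.47, 12.54 and 13.23 in ACE cultures. The ranges overlapped, and lot 2 was the highest in both groups, with 12.98 in control and 13.23 in ACE. Within pairs, ACE minus control was 0.13, 0.25, -0.050, 0.016, 0.40 and 0.26 in lots 1 to 6. The mean difference was 0.17 ± 0.063 (SE, 95% interval 0.016 to 0.32, n = 6 pairs, limma unadjusted p = 0.0353, adjusted p = 0.267), 1.12-fold, and the exact two-sided signed-rank p was 0.0938. The smallest p this rank test can give with 6 pairs is 0.0312. ACE was higher in 5 of 6 pairs, and 38.6% of all probes went one way in at least 5 pairs. Without the lot block the unadjusted limma p for Junb was 0.314, and with a random block it was 0.016 (adjusted 0.21).

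Fosl2, a FOS relative that carries no strong activation domain, was read by 2 probes in the coding sequence, which the file does not place on rn4. They are shown because their pair differences were unlike, the main probe first.
Fosl2 main probe: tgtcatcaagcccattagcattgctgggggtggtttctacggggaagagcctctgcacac
Fosl2 second probe: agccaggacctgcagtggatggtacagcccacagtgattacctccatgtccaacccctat

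The log2 signal of the main probe was 5.47, 6.16 and 6.45 in control cultures and 5.91, 6.13 and 6.46 in ACE cultures. The difference was 0.12 ± 0.10 (SE, 95% interval -0.13 to 0.36, n = 6 pairs, limma adjusted p = 0.586), with ACE higher in 4 of 6 pairs. The second probe, well above background on 4 of 6 control and 6 of 6 ACE arrays, gave 0.17 ± 0.063 (SE, n = 6 pairs, limma unadjusted p = 0.0362, adjusted p = 0.270). Over the 6 pair differences the 2 probes correlated at r = 0.261 (exact permutation p = 0.601, Spearman's rho 0.0857, exact permutation p = 0.919), and r was 0.687 without the 2 pairs farthest from the median.

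Of the EGR genes, Egr1 moved in opposite directions in different lots, and its mean difference was close to 0. The main probe (rn4, chr18:27347173-27347232, + strand), printed on 10 spots, gave a log2 signal of 10.99, 11.10 and 11.34 in control cultures and 10.61, 11.15 and 11.85 in ACE cultures. All control values lay inside the ACE range. The SD over cultures was 0.15 in control and 0.47 in ACE, a contrast that was not tested. Within pairs, ACE minus control was -0.41, 0.56, 0.14, -0.33, 0.11 and -0.012 in lots 1 to 6. The mean was 0.0095 ± 0.13 (SE, 95% interval -0.30 to 0.32, n = 6 pairs, limma adjusted p = 0.976), with ACE higher in 3 of 6 pairs. The SD of the pair differences was 0.353, at percentile 85.6 of all probes, whose median SD was 0.124. The largest standard error of the mean of the 10 spots on an array was 0.021, which covers the reading of 1 array and not the spread between cultures of a lot, which had 1 culture per group.

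The second Egr1 probe, 1 spot at rn4 chr18:27346058-27346117 (+ strand), gave nearly the same pair differences. They were -0.48, 0.47, 0.28, -0.32, 0.14 and -0.11 in lots 1 to 6, and their mean was -0.0049 ± 0.13 (SE, n = 6 pairs, limma adjusted p = 0.987). Over the 6 pairs the 2 probes correlated at r = 0.968 (exact permutation p = 0.00139) with Spearman's rho 1 (exact permutation p = 0.00278), and r was 0.938 without the 2 pairs farthest from the median. The largest gap between the 2 probes in any pair was 0.139. The opposite shifts of Egr1 in lots 1 and 4 and in lot 2 were thus read by both probes on the same arrays.

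The 2 Egr1 probes did not rank the lots alike. Over the 6 lot means r was 0.304 (exact permutation p = 0.547, rho 0.429, exact permutation p = 0.419), and 0.378 without the 2 lots farthest from the median. The lot means of the second probe were 8.75, 9.44 and 9.37 in lots 1 to 3 and 10.17, 10.48 and 10.02 in lots 4 to 6, the lots of the shared scan batch. The main probe gave 10.81, 11.57 and 11.06 in lots 1 to 3 and 10.84, 11.40 and 11.17 in lots 4 to 6, with no such step. The part of the scan batch in this was not tested.

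**Figure D2:**
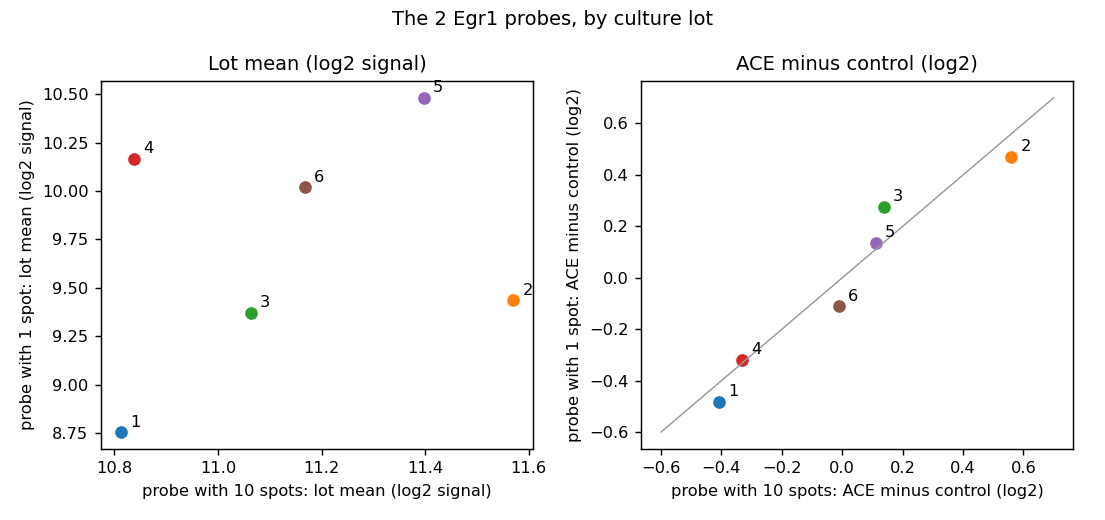
The 2 Egr1 probes set against each other by lot (numbers 1 to 6), as the mean of the 2 cultures of a lot on the left and as ACE minus control on the right, both in log2 units with the probe with 10 spots on the x axis. The pair differences lie close to the line of equality (r = 0.968), whereas the lot means do not rank alike (r = 0.304).

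Egr2, a factor of Schwann cells and activated neurons, was read by a probe on 10 spots (rn4, chr20:21883940-21883999, - strand). Its log2 signal was 8.13, 8.33 and 8.65 in control cultures and 8.10, 8.36 and 8.73 in ACE cultures, and the ranges nearly coincided. The difference was 0.028 ± 0.056 (SE, 95% interval -0.11 to 0.16, n = 6 pairs, limma adjusted p = 0.816), with ACE higher in 2 of 6 pairs.

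Egr3, a target of EGR1 as well as of activity, showed the largest mean difference of the 8 genes, on a probe close to background. The gene had 2 probes in the coding sequence, at rn4 chr15:50479803-50479862 (main) and chr15:50479417-50479476, both + strand. They are shown because only the first gave a usable signal.
Egr3 main probe: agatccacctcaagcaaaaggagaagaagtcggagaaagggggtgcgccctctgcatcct
Egr3 second probe: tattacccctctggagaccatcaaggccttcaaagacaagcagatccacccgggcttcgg

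The log2 signal of the main Egr3 probe was 4.87, 4.95 and 6.03 in control cultures and 4.30, 4.65 and 4.97 in ACE cultures, well above background on 6 of 6 control and 5 of 6 ACE arrays. The groups overlapped, through the ACE culture of lot 1 at 4.97. Within pairs, ACE minus control was 0.081, -0.23, -1.33, -0.64, -0.26 and -0.60 in lots 1 to 6. The mean difference was -0.50 ± 0.18 (SE, 95% interval -0.92 to -0.072, n = 6 pairs, limma unadjusted p = 0.0282, adjusted p = 0.250), 0.709-fold, and the exact two-sided signed-rank p was 0.0625. ACE was lower in 5 of 6 pairs. Without the lot block the unadjusted limma p for Egr3 was 0.0266 (adjusted 0.9998), and with a random block 0.0033 (adjusted 0.156). The control culture of lot 3, at 6.03, stood apart from the other 5 control cultures, and without lot 3 the difference was -0.33. With a model-based background correction (normexp) the difference was -0.19. A shift by the 75th percentile in place of quantile normalisation gave -0.65, and lots 4 to 6 alone gave -0.50. The second Egr3 probe was well above background on 1 of 6 arrays in each group and was not tested.

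**Figure D3:**
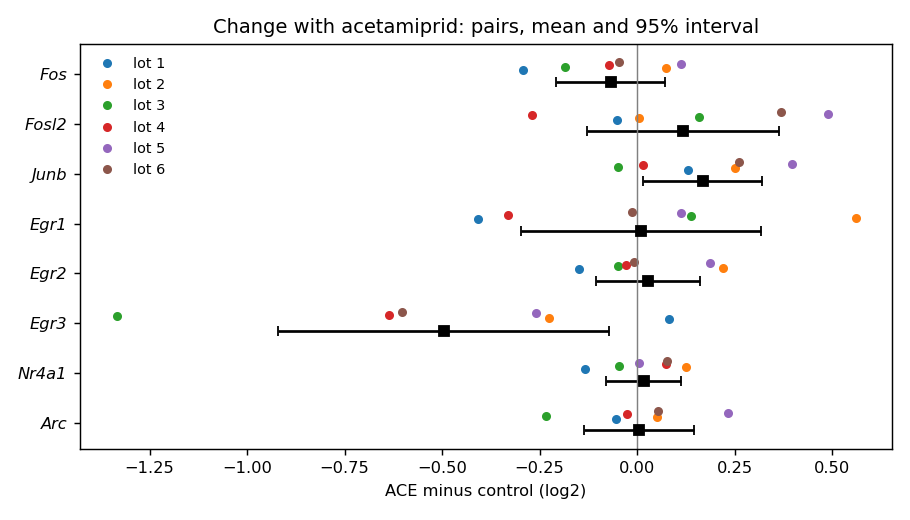
ACE minus control on the log2 scale (x axis) for 8 immediate early genes (y axis), with a dot for each of the 6 lots and a square with a bar for the mean and its 95% interval from limma, before any correction for multiple testing. The intervals of Junb (0.016 to 0.32) and Egr3 (-0.92 to -0.072) lie on 1 side of 0 and the other 6 include it.

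Nr4a1 (rn4, chr7:140020442-140020501, + strand, 10 spots) had the tightest estimate. Its log2 signal was 10.11, 10.22 and 10.43 in control cultures and 9.98, 10.28 and 10.50 in ACE cultures. The difference was 0.017 ± 0.040 (SE, 95% interval -0.079 to 0.11, n = 6 pairs, limma adjusted p = 0.855), with ACE higher in 4 of 6 pairs. On the fold scale the interval ran from 0.946 to 1.08.

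Npas4 was not well above background on any of the 6 control or 6 ACE arrays (rn4, chr1:207598453-207598512, - strand) and did not pass the filter on dim signal, so it was not tested. The probe is shown because this reading rests on it alone.
Npas4 probe: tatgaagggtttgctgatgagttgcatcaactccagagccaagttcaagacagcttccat

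Arc (rn4, chr7:112772025-112772084, - strand, 10 spots) had the same mean in both groups, 7.85 ± 0.23 in control and 7.85 ± 0.24 in ACE cultures (SD, n = 6 each). Its log2 signal was 7.47, 7.91 and 8.12 in control cultures and 7.42, 7.93 and 8.09 in ACE cultures. The difference was 0.0045 ± 0.059 (SE, 95% interval -0.14 to 0.15, n = 6 pairs, limma adjusted p = 0.976), with ACE higher in 3 of 6 pairs and a fold interval of 0.910 to 1.11.

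For 7 of the 8 genes the culture lot took a larger share of the variance than the exposure, as it did at the median of all probes (92.0% for lot, 1.42% for exposure). Between lots, 6 of the 8 genes passed the moderated F test of limma, beside 83.9% of all probes, with adjusted p-values of 0.00548 for Junb, 0.00937 for Arc, 0.0101 for Fos, 0.0111 for Egr2, 0.0156 for Nr4a1 and 0.0230 for Fosl2. Egr3 (adjusted p = 0.333) did not pass, and the 2 probes of Egr1 fell on either side, the main probe at an adjusted p of 0.0738 and the second at 0.00321. The lot took 81.1% to 89.4% of the variance of the 6 genes that passed. For Egr3 it was 33.6%, with 36.7% for exposure, and for Egr1 74.6% by the main and 92.4% by the second probe, with 0.022% and 0.0016% for exposure. The lot was also the slide and, for lots 1 to 3, the scan batch. Within lots 4 to 6, which shared a scan batch, 0 of the 8 genes passed (limma adjusted p = 0.0867 to 0.811), beside 8.06% of all probes.

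By the main probes, lot 2 was among the 3 highest lot means for all 8 genes. It was the highest for Junb (13.10, with 12.39 to 12.59 in the other 5 lots), Egr1 (11.57) and Fosl2 (6.45), and it was next to lot 3 for Egr2 (8.62 against 8.63). The other lots ranked differently from gene to gene. Arc and Nr4a1 were both lowest in lot 1 (7.45 and 10.05) and highest in lot 4 (8.11 and 10.47). Fos was highest in lot 1 (10.67) and lowest in lot 5 (10.07), and Fosl2 was also lowest in lot 5 (5.72). By the second Egr1 probe, lot 2 (9.44) lay below lots 4, 5 and 6 (10.17, 10.48 and 10.02). The second Fosl2 probe was highest in lot 6 (5.31, with 5.03 in lot 2).

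Over the 6 lot means, the 28 pairs of genes correlated with a median r of 0.168 (-0.619 to 0.933), and 17 were positive. The highest was Arc with Nr4a1 (r = 0.933, exact permutation p = 0.0292, adjusted over the 28 relations 0.467, rho 0.829, exact permutation p = 0.0583). This relation rests on the outer lots, since r was 0.0266 without the 2 lots farthest from the median of Arc. Over all 12 arrays, where the 2 cultures of a lot are not independent, the median r was 0.162.

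Over the 6 pair differences, the median r was 0.518 (-0.146 to 0.945), and 24 of 28 were positive. The contrast with the lot means was not tested, and all 8 genes share the arrays of a pair. Fos and Egr2 gave the highest value (r = 0.945, exact permutation p = 0.00694, adjusted over the 28 relations 0.136, rho 0.943, exact permutation p = 0.0167), and r was 0.952 without the 2 pairs farthest from the median. Arc and Junb followed (r = 0.929, exact permutation p = 0.00972, adjusted 0.136, rho 0.943, exact permutation p = 0.0167), with 0.805 without the 2 farthest pairs. Egr1 and Egr2 gave r = 0.809 (exact permutation p = 0.0403, adjusted 0.376, rho 0.657, exact permutation p = 0.175), which dropped to 0.366 without the 2 farthest pairs. None of the 28 relations passed the correction on either scale.

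**Figure D4:**
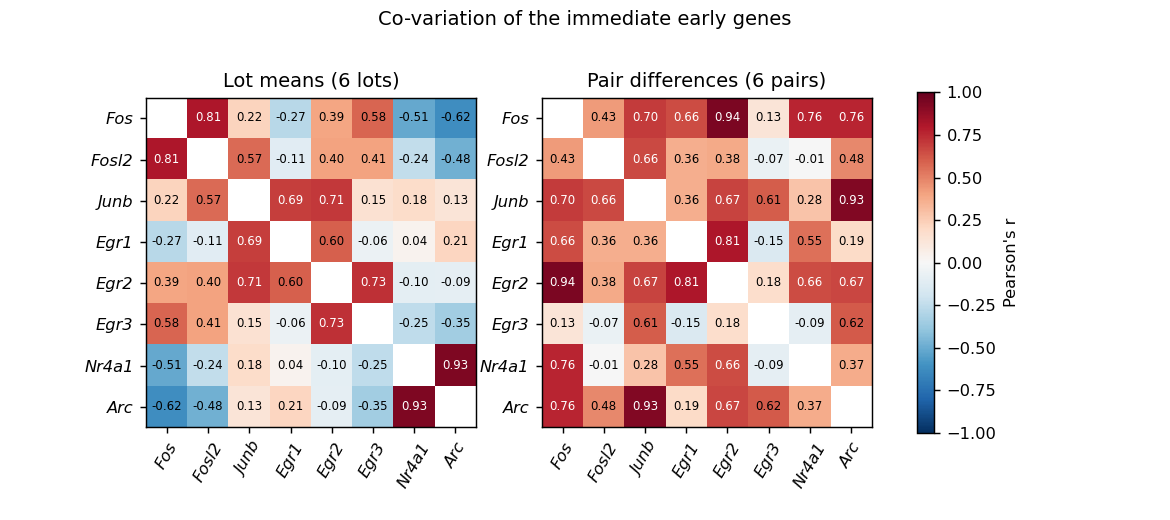
Pearson's r between 8 immediate early genes (both axes) over the 6 lot means on the left and over the 6 ACE minus control pair differences on the right, with the colour scale from -1 to 1. Of the 28 pairs, 24 are positive on the right and 17 on the left.

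The mean difference over the 8 genes was -0.11, 0.13, -0.20, -0.16, 0.16 and 0.012 in lots 1 to 6, with no common direction, and its mean was -0.028 ± 0.15 (SD over 6 pairs), which turned to 0.0069 without lot 3. Array brightness also differed within pairs. The log2 ratio of the ACE to the control array's 75th percentile before normalisation was 0.037, 0.18, -0.21, 0.094, 0.43 and 0.081 in lots 1 to 6. The mean of the genes correlated with it at r = 0.840 (rho 0.829), and at 0.761 without the 2 pairs farthest from the median of brightness. None of the 9 relations computed with brightness (8 genes and their mean) passed the correction. Arc gave r = 0.977 (exact permutation p = 0.0125, adjusted 0.0563, rho 0.829, exact permutation p = 0.0583, r = 0.671 without the 2 farthest pairs). Junb gave r = 0.870 (exact permutation p = 0.0222, adjusted 0.0667, rho 0.714, exact permutation p = 0.136, r = 0.386 without them). Fos gave r = 0.758 (exact permutation p = 0.0819, adjusted 0.184, rho 0.886, exact permutation p = 0.0333, adjusted 0.131), and r was 0.914 without them. Egr2 gave r = 0.693 (exact permutation p = 0.118, adjusted 0.212, rho 0.829, exact permutation p = 0.0583), and r was 0.989 without them. Egr1 gave r = 0.179 (exact permutation p = 0.782, rho 0.257, exact permutation p = 0.658, r = 0.912 without them), and the other 3 genes gave r of 0.323 (Nr4a1), 0.375 (Fosl2) and 0.640 (Egr3). The part of array brightness in the joint movement of the genes was not tested.

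**Figure D5:**
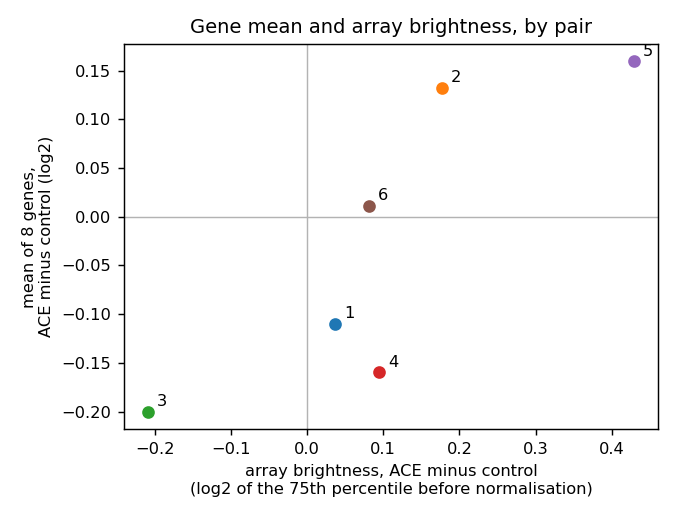
Mean ACE minus control difference of 8 immediate early genes (y axis, log2) against the ACE minus control difference in array brightness (x axis, log2 of the 75th percentile before normalisation), with a point for each lot (numbers 1 to 6). The pair with the dimmer ACE array, lot 3 at -0.21, has the lowest gene mean (-0.20), and the pair with the largest excess, lot 5 at 0.43, has the highest (0.16).

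To find genes with a like pattern, the mean of the standardised signals of the 8 genes was correlated over the 12 arrays with 11356 other genes that were well above background on all arrays. The 10 most alike were Hif1a (the oxygen-regulated transcription factor subunit, r = 0.950), Uchl3 (a ubiquitin hydrolase, 0.940), Slc30a4 (a zinc transporter, 0.936), Aqr (0.922), Rbbp7 (a histone-binding protein, 0.919), Tjp1 (tight junction protein ZO-1, 0.909), Nedd4 (a ubiquitin ligase, 0.909), Rpap2 (0.901), Snx16 (a sorting nexin, 0.900) and Otud1 (a deubiquitinase, 0.892). None of the 10 is counted among the classical activity genes, and their ACE minus control differences ran from -0.040 for Tjp1 to 0.033 for Hif1a. Of the other inducible genes, Klf6 ranked 29 (r = 0.864) and Btg2 ranked 156 (r = 0.775), both named after their values were seen. The median r over the 19 ranked inducible transcription factors was 0.191, beside 0.135 over all genes ranked. It was 0.055 over 19 inducible effectors, -0.0028 over 12 late genes, -0.049 over 31 upstream genes and -0.13 over 8 stress genes, all below the value over all genes.

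Other inducible transcription factors were measured by 21 genes, all kept. Of these, 0 passed the adjusted test, 14 had a higher and 7 a lower mean in ACE, and the median difference was 0.034 beside -0.0050 over all probes. The AP-1 gene Fosl1 was 0.21 ± 0.053 higher (SE, limma adjusted p = 0.177, 6 of 6 pairs), and Csrnp1, a nuclear protein induced by axin, was 0.19 ± 0.044 higher (adjusted p = 0.155, 6 of 6 pairs). Among all probes, 11.6% went one way in all 6 pairs. Nr4a3, the relative of Nr4a1, gave -0.25 ± 0.38 (adjusted p = 0.757), and Nfil3, a leucine-zipper repressor, -0.088 ± 0.095 (adjusted p = 0.664). In this list 2 genes were higher and 1 was lower at an unadjusted p under 0.05, beside 6.9% and 9.73% of all probes, so these 3 of 21 genes lay near the 16.6% of all probes.

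Inducible effectors and feedback genes were measured by 22 kept genes of 24, of which 13 had a higher and 9 a lower mean, 0 passed the adjusted test, and 2 in each direction had an unadjusted p under 0.05, again near the background of 6.9% higher and 9.73% lower. Their median difference was 0.023. Zfp36, an mRNA-decay factor, gave 0.31 ± 0.24 (SE, limma adjusted p = 0.547), and Spry4, an inhibitor of receptor tyrosine kinase signalling, gave 0.27 ± 0.083 (adjusted p = 0.213). Pim1, a kinase, gave -0.24 ± 0.15 (adjusted p = 0.466), and Gadd45g, a stress and growth-arrest gene, gave -0.19 ± 0.051 (adjusted p = 0.184).

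Late activity-response genes, secreted peptides and synaptic proteins that follow the early wave, were measured by 13 kept genes of 14, with 6 higher and 7 lower means and a median of -0.0026. Of these, 0 had an unadjusted p under 0.05, beside 16.6% of all probes. Nptx1 (neuronal pentraxin) gave 0.16 ± 0.084 and Cort (cortistatin) 0.13 ± 0.079, while Scg2 (secretogranin II) gave -0.19 ± 0.085 and Pcsk1 (a prohormone convertase) -0.16 ± 0.31, with limma adjusted p-values of 0.392, 0.436, 0.336 and 0.811.

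Among the upstream kinases, phosphatases and regulators, 34 genes of 36 were kept, with 16 higher and 18 lower means, 0 past the adjusted test, 2 lower at an unadjusted p under 0.05 (beside 9.73% of all probes), and a median of -0.012. The coactivator Crebbp gave 0.095 ± 0.061 (SE, limma adjusted p = 0.465) and Srf, the CArG-box factor, 0.065 ± 0.033 (adjusted p = 0.376). Hdac5, a deacetylase exported from the nucleus by activity, gave -0.19 ± 0.068 (adjusted p = 0.258), and Crtc2, a CREB coactivator, gave -0.15 ± 0.037 (adjusted p = 0.175, lower in 6 of 6 pairs). Among all probes, 11.6% went one way in all 6 pairs.

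Cell stress genes, which share inducers with the early genes, were measured by 8 kept genes of 9, with 2 higher and 6 lower means and a median of -0.024. At an unadjusted p under 0.05, 1 was higher and 1 lower, beside 6.9% and 9.73% of all probes, and 0 passed the adjusted test. Ddit3 (CHOP) was 0.11 ± 0.026 higher (SE, limma adjusted p = 0.158, 6 of 6 pairs) and Hspa1b gave 0.0053 ± 0.046 (adjusted p = 0.962). Txnrd1, a thioredoxin reductase, gave -0.19 ± 0.050 (adjusted p = 0.184, lower in 6 of 6 pairs), and Hspb1 gave -0.048 ± 0.027 (adjusted p = 0.414). Among all probes, 11.6% went one way in all 6 pairs.

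Markers of the cell types in the cultures did not share 1 direction. The 5 kept pan-neuronal genes were all higher in the mean in ACE (median 0.11), with list means of 8.62 to 9.50 in control and 8.64 to 9.61 in ACE cultures, and of the 5 inhibitory interneuron genes 4 were higher (median 0.21). Of the 8 granule cell genes, 2 were higher and 6 lower (median -0.038), and of the 6 kept Purkinje cell genes 4 were higher (median 0.032). Among glia, 1 of 7 astrocyte genes (median -0.066), 7 of 10 oligodendrocyte-lineage genes (median 0.015) and 5 of 7 microglial genes (median 0.063) were higher. The median was -0.17 over 4 kept endothelial and 0.039 over 5 fibroblast genes. The 8 kept skeletal muscle genes were all lower in the mean (median -0.63), with list means of 7.69 to 11.87 in control and 7.62 to 10.63 in ACE cultures, beside 8.77 to 9.16 and 8.78 to 9.23 for the early genes. Lot 2 carried most of this, since the muscle list mean was 11.87 in its control and 8.08 in its ACE culture, and the mean difference of -1.07 was -0.52 without lot 2, a value added after seeing the data. In lots 4 and 5 the muscle list was slightly higher in ACE (0.059 and 0.063). Single lots also set the sign of other list means: that of the endothelial genes was -0.17 and 0.078 without lot 5, that of the fibroblast genes 0.061 and -0.055 without lot 4, that of the microglial genes 0.018 and -0.037 without lot 1, that of the granule cell genes 0.0055 and -0.041 without lot 1 or -0.020 without lot 2, and that of the Purkinje cell genes -0.010 and 0.0066 without lot 6. The interneuron mean of 0.14 was 0.078 without lot 1. The astrocyte list mean was lower in ACE in every lot (difference -0.071 to -0.023, mean -0.045). None of these markers passed the adjusted test. The part of cell composition in the immediate early gene values was not tested.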

How the data were processed

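Total RNA from 12 cultures (6 control, 6 ACE) was labelled with Cy3 and hybridised to 1-colour rat arrays. Per the file headers, the authors extracted spot intensity with Agilent Feature Extraction (11.0.1.1 for lot 1, 11.5.1.1 for the other lots), which subtracted background and removed spatial trends. A deposited table of log2 values, made by the authors, was quantile normalised and centred per probe. It correlated at 0.995 to 0.999 per array with the values computed here and was used as an alternative. Probe coordinates (rn4) and gene symbols are those of the files.

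Control spots and spots with an outlier mark were left out (447 missing probe values). Processed intensities were put on the log2 scale and quantile normalised, and spots of a probe were averaged. A probe was kept where at least 7 of 12 arrays read it above their 20th percentile and at least 4 pairs were complete. Each kept probe was fitted with limma 3.58.1 in R 4.3.3 (two-sided) with exposure and lot as fixed terms, with Benjamini-Hochberg adjustment over all 23796 probes at 0.05. Because the methods name a paired rank test, the exact signed-rank test was run beside limma. Differences between lots used the moderated F of the same fit. Correlations over 6 lots or pairs used all 720 permutations, two-sided. The fit was tested on simulated data.

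The replicate number paired the cultures because, per the study's methods, all groups of an experiment came from 1 lot of cells. As a check, deviations from the group means correlated at 0.449 to 0.912 for arrays sharing a number and at -0.439 to 0.39 for others. Arrays sharing a number also shared a slide, so this cannot tell a common lot of cells from a common slide. The number of arrays limits the precision. The genes, lists and tests were chosen with earlier results of these data known. Genes named beside the immediate early genes were, per list, the 2 highest and 2 lowest mean differences among genes well above background on all 12 arrays, and the 10 genes most like the mean profile. Promoters came from RefSeq (GRCr8). Alternatives were another scaling, normexp (offset 50), the deposited table, other filters, no block or a random block, leaving out each lot, lots 4 to 6 alone and the other probe of a gene, and the last 2 were chosen after seeing the data. Nicotine and imidacloprid cultures were not analysed here.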

Additional observations from a re-analysis of the deposited data

Results flagged for a closer look

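Of 20 sets of 6 cultures (10 probes in 2 groups), 2 held a culture set apart by Dixon's test at the 95% level, and chance sets apart about 1 in 20. The Egr3 control culture of lot 3 had a log2 signal of 6.03, while the other 5 control cultures lay between 4.87 and 5.07 (ratio 0.822). The Junb ACE culture of lot 2 had a log2 signal of 13.23, while the next highest ACE culture had 12.66 (ratio 0.746). The control culture of the same lot was also the highest of its group for Junb, at 12.98.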

How the results depend on the processing

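Over 114 alternative values for the 8 genes, 100 kept their direction and 14 changed sign, and none passed the adjusted threshold. All 14 were of genes whose difference was within 0.03 of 0. The other filters, no block and the random block leave the difference itself unchanged by construction. Their values are counted among the 100 and could not change sign. With a shift by the 75th percentile in place of quantile normalisation, Arc gave -0.043 and Egr2 -0.0042. Egr1 gave -0.0040 with normexp, -0.077 within lots 4 to 6 and -0.0049 by its other probe. Leaving out 1 lot at a time gave -0.041 to 0.052 for Arc, -0.10 to 0.093 for Egr1, -0.0099 to 0.064 for Egr2 and -0.0053 to 0.047 for Nr4a1. For Egr3 it gave -0.61 to -0.33, for Junb 0.12 to 0.21, for Fos -0.10 to -0.023 and for Fosl2 0.043 to 0.19. Fosl2 (0.12) gave 0.028 with the shift by the 75th percentile, 0.013 with normexp and 0.20 within lots 4 to 6, and Fos (-0.068) gave -0.0023 within lots 4 to 6. The mean over the 8 genes (-0.028) ran from -0.065 to 0.0069 without 1 lot, and was -0.069 with the shift by the 75th percentile and -0.0018 with normexp.

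Without the replicate block, 81 probes in place of 3956 had an unadjusted p under 0.05, and 1 of the 8 genes in place of 2. With a random block, 5 of all probes passed the adjusted test, and none of the 8 genes. Without 1 lot, 0 to 2 of the 8 genes had an unadjusted p under 0.05 and 4 to 6 passed the test between lots (4 without lot 1 and 4 without lot 2), beside 2810 to 4161 and 16718 to 20089 of all probes. Without lot 6 neither Junb nor Egr3 had an unadjusted p under 0.05. Within lots 4 to 6, 1917 probes in place of 19963, and 0 of the 8 genes in place of 6, passed the test between lots, with fewer lots in the fit. The median correlation over the 12 arrays was 0.162, and -0.044 with the shift by the 75th percentile and 0.036 to 0.33 without 1 lot (lowest without lot 2, highest without lot 4). The cause was not tested. Low signal limits Egr3, Fosl2 and Npas4.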
